A study of Homo sapiens with 9 samples.

Results

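The nuclear-encoded subunits of the mitochondrial respiratory chain and of ATP synthase were followed in ALL-SIL T-ALL cells after electroporation with a control siRNA or with siRNAs against *PHF6*. The genes were taken by symbol, as *SDHA*, *SDHB*, *SDHC*, *SDHD* and *CYC1*, the numbered *NDUFA*, *NDUFB*, *NDUFC*, *NDUFS* and *NDUFV* genes, the *UQCR* genes, the *COX4* to *COX8* genes with a letter A to C, and the *ATP5F*, *ATP5P* and *ATP5M* genes, without pseudogenes. Of 85 protein-coding genes with such a symbol, 82 had a probe on the array and 79 were measured, among 14682 measured genes in all. A gene was counted as measured when 3 or more arrays marked a probe of it as well above background, and each of the 79 was so marked on all 9 arrays. The brightest probe stood for the gene. By complex, 36 subunits belonged to complex I, 4 to complex II, 9 to complex III, 12 to complex IV and 18 to complex V. *COX7A1*, *COX7B2* and *COX8C*, isoforms of complex IV known from muscle or testis, were not measured, since their probes were well above background on 1, 1 and 0 arrays. *UQCRHL* and the readthrough genes *ATP5MF-PTCD1* and *NDUFC2-KCTD14* had no probe. The mitochondrially encoded subunits were looked for under 26 symbols, an older and a newer one for each gene, and no probe was matched to any, so they could not be followed here.

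The respiratory chain sits in the inner mitochondrial membrane. Complexes I and II take electrons from NADH and succinate and pass them by ubiquinone to complex III, cytochrome c carries them on to complex IV, which reduces oxygen, and the proton gradient built on the way drives ATP synthase, also called complex V. Except for complex II, whose subunits are all nuclear, each complex joins nuclear-encoded subunits with subunits made inside the mitochondrion, and leukaemic T lymphoblasts, like other proliferating cells, use this machinery beside glycolysis.

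*PHF6* encodes a chromatin-bound zinc finger protein that is lost by mutation in a share of T-ALL, and the study dealt with its role in the development of human blood cells, for which leukaemic T cells with reduced *PHF6* were profiled as well. Custom Agilent arrays read in a single colour measured the RNA of 9 samples, 3 with the control siRNA, 3 with *PHF6* siRNA1 and 3 with *PHF6* siRNA2, as independent biological replicates numbered 1 to 3. Arrays of the same number are paired here, and whether they came from 1 culture is not stated. The cells were collected 96 h after electroporation according to most labels and to the study's methods, and 72 h according to a free-text description. Arrays of replicates 1 and 2 lay on 1 slide and those of replicate 3 on another, and 29694 to 33751 probes of an array were well above background.

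ALL-SIL is an established line from 1 patient with T-ALL, so the cultures repeat the treatment and not the donor, and the p-values below measure the spread between these cultures. The siRNAs were delivered by electroporation, which the control cells also underwent. The 2 *PHF6* siRNAs are different products, a SMARTpool mixture of the ON-TARGETplus type and a reagent of the Silencer Select type, and which of them is siRNA1 is not stated. Levels are given as generalized log2 intensities, on which a difference of 1 is a doubling for bright probes, and the level of a gene was set only against that of the same probe on other arrays. The number of arrays limits the precision.

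The identity of the cells was checked against marker lists. All 13 of the T lineage markers with a probe were well above background on 9 arrays, among them *CD3D*, *CD3E*, *CD5*, *CD7*, *LCK* and *TLX1*, the homeobox gene that is rearranged in this line. Of the B cell markers, *CD79A* and *CD79B* were well above background on 9 arrays and *CD22* on 0. Among the markers of other blood cells, *CD33*, *HBB*, *KLRD1* and *KLRF1* were well above background on 0 arrays, while *KLF1* and *NKG7* were among those that were so on 9. With the replicate number as a block in the limma fit, *PTCRA* (−0.73, adjusted p 0.00839), *CD7* (−0.76, adjusted p 0.0125), *CD79B* (−0.48, adjusted p 0.0417) and *NKG7* (−0.43, adjusted p 0.0307) fell with the *PHF6* siRNAs, each in 6 of 6 arrays. With this block limma called 2.36% of all genes. Without the block limma called none of these 4, and 0 markers of any list. In that fit 3 T lineage markers, 1 B cell marker and 1 NK cell marker had an unadjusted p under 0.05, where 6.38% of all genes did. Of the 13 T lineage markers 10 were lower and 3 higher, among the latter *CD1A*, named after its values were seen, by 0.71 (adjusted p 0.0730 with the block). The part of these differences between the cells in the subunits' values was not tested.

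*PHF6* itself measured 11.07, 11.17 and 10.86 in the control arrays, 9.39, 9.69 and 9.12 with siRNA1 and 9.20, 9.28 and 9.14 with siRNA2. All 6 siRNA arrays lay below all 3 controls. The mean log2 difference of both siRNAs from control was −1.73 (SE 0.14), with an adjusted p of 0.00248 by limma, and it was −1.63 with siRNA1 (adjusted p 0.0178) and −1.83 with siRNA2 (adjusted p 0.00598). The two-sided exact permutation of 6 against 3 arrays gave p 0.0119, the smallest that its 84 splits allow. With both siRNAs the call held without any 1 of the 9 arrays (adjusted p 0.00208 to 0.0491) and was lost with the VSN model on background-subtracted intensities (0.0586). With siRNA1 alone the call was lost without control replicate 1 (adjusted p 0.123), 2 (0.207) or 3 (0.0633), without siRNA1 replicate 1 (0.0869) and without siRNA2 replicate 2 (0.0725). With siRNA2 alone it was lost without control replicate 1 (0.0692) or 2 (0.0781) and without siRNA2 replicate 1 (0.0533) or 2 (0.0613). Each siRNA alone also lost the call with VSN on background-subtracted intensities (0.128 for siRNA1, 0.115 for siRNA2) and with the 75th percentile (0.0534 and 0.0586). With the replicate block the calls held, at an adjusted p of 8.31e-05 for both, 0.000599 for siRNA1 and 0.000214 for siRNA2 in the fit of all arrays. The size of the difference changed little, and with VSN on background-subtracted intensities it was −1.84 for both, −1.75 for siRNA1 and −1.93 for siRNA2.

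No subunit was called when both *PHF6* siRNAs were compared with the control siRNA. limma called 0 of the 79 subunits, where 0.00681% of all genes were called, and 4 subunits had an unadjusted p under 0.05, which is 5.06% of them against 6.38% of all genes. These were *NDUFC2*, *UQCRQ*, *NDUFA11*, an accessory subunit of complex I, and *NDUFS3*. Of these, *NDUFA11* and *NDUFS3* are named after their values were seen. The subunits nevertheless lay mostly on one side. Of the 79, 73 were lower with the *PHF6* siRNAs (92.4%), against 58.9% of all genes, and their median log2 difference was −0.15, against −0.04 over all genes. The single differences ran from −0.37 for *NDUFC2* to 0.14 for *COX6A2*, with a median SE of 0.12. The median shrank to −0.06, with 56 subunits lower, when intensities were corrected by normexp and scaled by quantiles, where the median of all genes was −0.01. In these bulk samples fewer cells, or a changed mix of cell states, cannot be told apart from less RNA per cell.

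The brightness of the probes bears on this lean. The subunits are bright as a group, 80% of them between 12.2 and 15.7, and of the 2312 genes in that range 74.5% were lower with the *PHF6* siRNAs, with a median of −0.08. The part that brightness plays in the subunits' median was not tested.

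Arrays of the same number share a pattern between the groups, so the fit was repeated with the replicate number as a block. With this block 0 of the 79 subunits were called by limma, where 2.36% of all genes were, and 14 had an unadjusted p under 0.05, 17.7% of the subunits against 19.1% of all genes. The lowest adjusted p of a subunit was 0.0777, for *NDUFC2*. How many subunits reach this unadjusted threshold depends on the setting. With the block it was 24 in the authors' table, where 7482 of 33595 probes did. With the block and normexp and quantile scaling it was 6, where 7071 probes did. It was 1, 7 and 17 with the block without replicate 1, 2 and 3, where 3932, 6873 and 6365 probes did. With the slide as the block it was 7, where 5001 probes did. Whether the share of subunits lay above or below that of all probes depended on the setting as well.

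Each siRNA was also compared with the control on its own, and both comparisons share the control arrays. With siRNA1, 73 subunits were lower with a median of −0.14 (all genes −0.05), 0 were called by limma where 0.00681% of all genes were, and 3 had an unadjusted p under 0.05 (4.98% of all genes), *NDUFC2*, *NDUFA11* and *NDUFS3*. With siRNA2, 76 were lower with a median of −0.15 (all genes −0.02), 0 were called by limma where 0.00681% of all genes were, and 1 had an unadjusted p under 0.05 (5.18% of all genes), *ATP5MC3*. With the replicate block 0 subunits were called by limma with siRNA1, where 0.838% of all genes were, and 10 had an unadjusted p under 0.05, 12.7% against 17.2% of all genes. With the same block 0 were called with siRNA2 (1.51% of all genes), and 14 had an unadjusted p under 0.05, 17.7% against 17.0% of all genes. In the authors' table with the block 24 did so with siRNA2, where 6626 of 33595 probes did. With the block and normexp and quantile scaling 8 did with siRNA2, where 6813 probes did. With the block without replicate 1, 2 and 3 these were 0, 7 and 16 with siRNA2 (2839, 7488 and 5565 probes). With siRNA1 they were 3, 4 and 10 (3997, 4845 and 5547 probes). With normexp and quantile scaling the medians were −0.03 for siRNA1, with 48 subunits lower (all genes −0.02), and −0.09 for siRNA2, with 60 lower (all genes −0.00), so with siRNA1 little of the difference from all genes was left.

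The siRNAs were also compared with each other. The control arrays do not enter these differences, but they enter the variance of the fit behind the tests. The median difference of siRNA2 from siRNA1 was −0.01, and 45 subunits were lower with siRNA2. Its direction depended on the setting. It was −0.05 with normexp and quantile scaling (53 lower, all genes 0.01). With the replicate block and without replicate 2 it was 0.02 (33 lower, all genes 0.02). By limma 0 subunits were called, where 0% of all genes were, and 1 had an unadjusted p under 0.05, 1.27% against 2.38% of all genes. With the replicate block 0 were called as well, where 0.0341% of all genes were. In that fit 2 had an unadjusted p under 0.05, *COX6A2* and *COX7A2L*, 2.53% against 9.07% of all genes. With the block and normexp and quantile scaling 9 subunits did so, where 3430 of 33595 probes did. The smaller share of subunits therefore depended on the scaling.

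**Figure D1:**
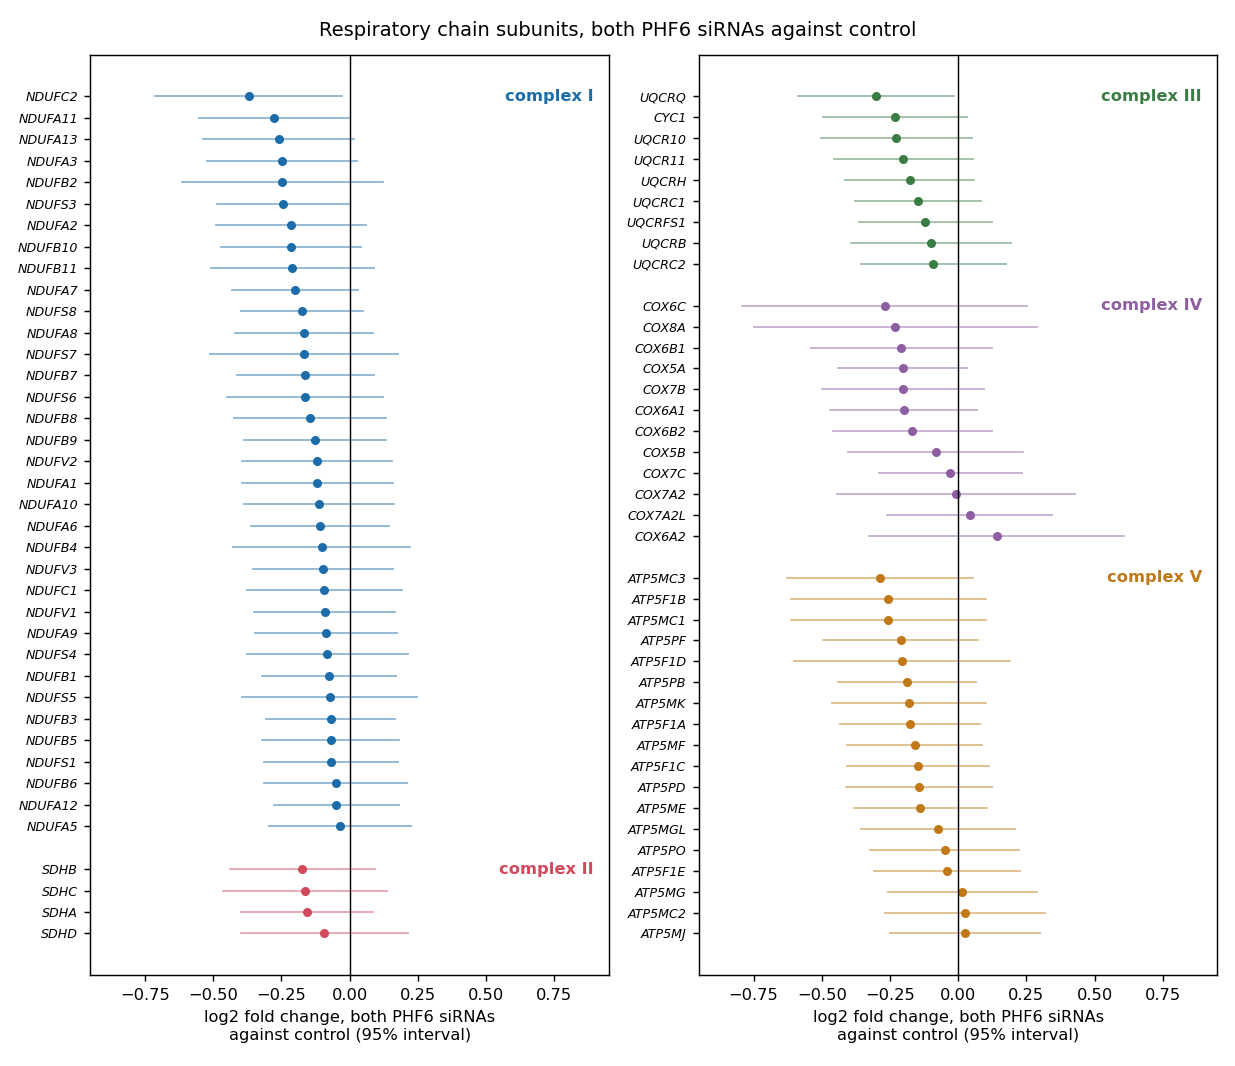
Log2 difference of both *PHF6* siRNAs from control (horizontal axis) of the subunits, 1 of them left out, ordered within each complex (vertical axis), with 95% intervals from limma (6 siRNA and 3 control arrays). Most points lie left of 0 and almost every interval reaches it; of all 79 subunits 73 were lower, or 56 with normexp and quantile scaling.

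Against the control array of its own replicate number, a subunit could be lower on 0 to 6 of the siRNA arrays. This was so on 6 of 6 arrays for 23 subunits (29.1%), where 14.1% of all genes were, on 5 for 28, on 4 for 17, on 3 for 7 and on 2 for 4. None was higher on 6 of 6 arrays, where 7.34% of all genes were. All 6 siRNA arrays lay below all 3 controls for 5 subunits (6.33%), where 2.74% of all genes did so. They were *COX5A*, *CYC1*, *NDUFA7*, *NDUFS8* and *UQCR11*, of which the last 3 are named after their values were seen. The shares among genes of the same brightness were not taken here.

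The lower values came from replicates 1 and 2. The median paired difference of the subunits with siRNA1 was −0.21 in replicate 1 (76 lower), −0.17 in replicate 2 (69 lower) and −0.04 in replicate 3 (54 lower), where all genes had −0.04, −0.10 and −0.02. With siRNA2 it was −0.17 in replicate 1 (70 lower), −0.24 in replicate 2 (73 lower) and 0.02 in replicate 3 (33 lower), where all genes had −0.00, −0.04 and 0.00. Genes of the same brightness had −0.10, −0.18 and −0.02 with siRNA1 and −0.05, −0.13 and 0.02 with siRNA2, so with siRNA1 in replicate 2 the subunits lay no lower than these. Taken by slide, the subunits' median over both siRNAs was −0.20 on the slide of replicates 1 and 2, with 76 lower, and −0.01 on the slide of replicate 3, with 43 lower. The relation therefore did not hold on the second slide, and since that slide holds replicate 3 alone, slide and replicate cannot be told apart. Leaving out single arrays moved the median of both siRNAs between −0.18 and −0.12, with 68 to 77 subunits lower. In the fit with the replicate block it was −0.20 without replicate 3 and −0.12 without replicate 1 or without replicate 2.

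**Figure D2:**
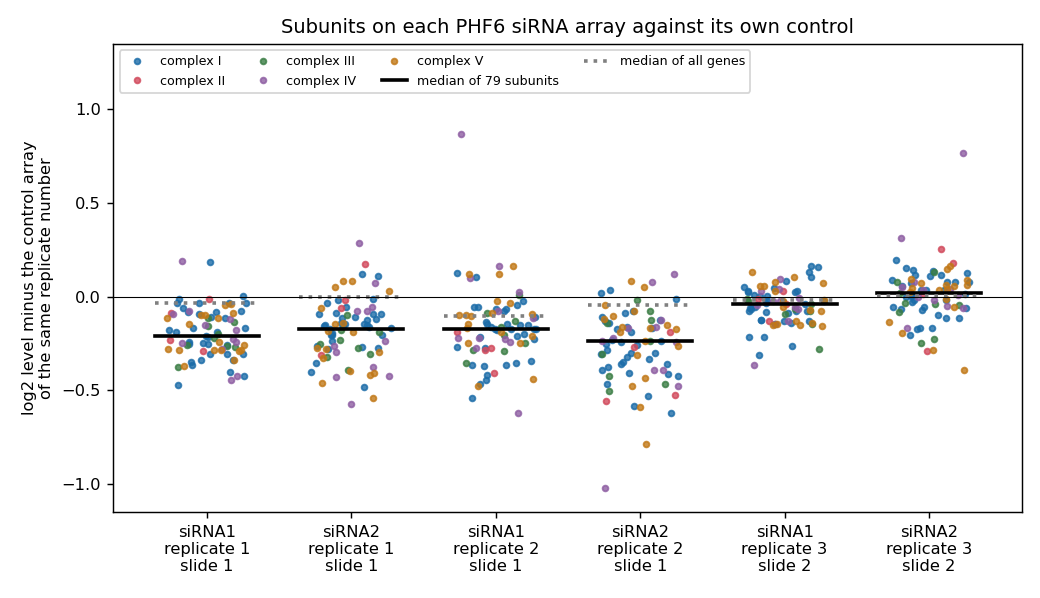
Difference in log2 intensity of each of the 79 subunits from the control of its own replicate number (vertical axis), for each of the 6 siRNA arrays (horizontal axis), with the median of the subunits as a black line and that of all genes as a dotted grey line. The subunits' median lies between −0.24 and −0.17 in replicates 1 and 2 and at −0.04 and 0.02 in replicate 3.

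**Figure D3:**
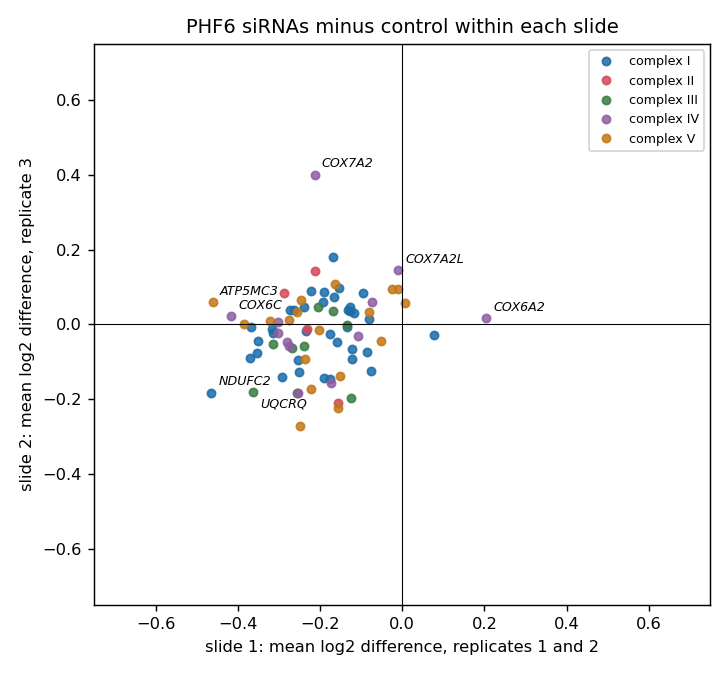
Mean difference from control of each subunit on the slide of replicates 1 and 2 (horizontal axis) and on that of replicate 3 (vertical axis), both in log2 intensity, coloured by complex. On the first slide 76 of 79 subunits lie below 0 and on the second 43.

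Complex I, the NADH dehydrogenase, is the largest of the 5 complexes. The counts of lower subunits by complex are to be read beside the shares of all genes and of genes as bright, given above. Of its 36 measured subunits 35 were lower with the *PHF6* siRNAs, with a median of −0.12, and 25 with normexp and quantile scaling. limma called 0 of them, 3 had an unadjusted p under 0.05, *NDUFA11*, *NDUFC2* and *NDUFS3*, and with the replicate block 8 did, which are 8.33% and 22.2% against 6.38% and 19.1% of all genes. By slide the median was −0.18 for replicates 1 and 2 and −0.02 for replicate 3.

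*NDUFC2*, an accessory subunit of the membrane arm, had the lowest value of the 79. It measured 13.97, 13.77 and 13.58 in the control arrays, 13.55, 13.23 and 13.27 with siRNA1 and 13.71, 13.15 and 13.52 with siRNA2. Each siRNA array lay below the control of its own number, but the groups overlap, because siRNA2 replicate 1 lay above control replicate 3. The mean difference was −0.37 (SE 0.15, adjusted p 0.654 by limma), or adjusted p 0.0777 with the replicate block, and over the alternatives tried it ranged from 0.0637 to 0.998. A dimmer probe of the gene gave −0.29.

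The core of complex I is the part conserved from bacteria, and its nuclear-encoded subunits carry the flavin and the iron-sulphur clusters. *NDUFV1*, which binds the flavin that takes electrons from NADH, differed by −0.09 (SE 0.12) and *NDUFS1*, an iron-sulphur subunit, by −0.07 (SE 0.11), both turning to 0.01 with normexp and quantile scaling. *NDUFS3*, another core subunit, named after its values were seen, measured 13.16, 13.36 and 13.25 in the controls, 12.91, 12.89 and 13.03 with siRNA1 and 13.05, 13.00 and 13.18 with siRNA2. It was lower on 6 of 6 arrays, by −0.24 (SE 0.11, adjusted p 0.672 by limma), with 1 siRNA array above the lowest control.

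Complex II, succinate dehydrogenase, also serves in the citric acid cycle, and its genes are tumour suppressors in other tissues. All 4 subunits were lower, with a median of −0.16, 0 were called by limma and 0 had an unadjusted p under 0.05 with or without the replicate block. By slide the median was −0.22 for replicates 1 and 2 and 0.04 for replicate 3. *SDHB*, the iron-sulphur subunit, measured 11.83, 12.09 and 12.16 in the controls, 11.82, 11.82 and 12.04 with siRNA1 and 11.77, 11.82 and 11.87 with siRNA2. It was lower on 6 of 6 arrays than its own control, yet 2 of the siRNA arrays lay above the lowest control. Its difference was −0.17 (SE 0.12, adjusted p 0.784 by limma). The two-sided exact permutation tests gave p 0.0357 over arrays and p 0.037 for the position of the control within replicate numbers, the smallest that the 27 arrangements allow. In all 21 genes were so tested, and no permutation p is given for those named only for their lowest or highest value. *SDHA*, the flavoprotein, differed by −0.16 (SE 0.11) and *SDHC*, a membrane anchor, by −0.16 (SE 0.14), each lower on 5 arrays. *SDHD*, the other anchor, differed by −0.09 (SE 0.14) and was lower on 3.

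Complex III, the cytochrome bc1 complex, passes electrons from ubiquinone to cytochrome c. All 9 subunits were lower, with a median of −0.18 (7 lower with normexp and quantile scaling). Of these subunits 5 were lower on 6 of 6 arrays, where 14.1% of all genes were. limma called 0, and 1 had an unadjusted p under 0.05, or 3 with the replicate block (11.1% and 33.3%, against 6.38% and 19.1% of all genes). Its median stayed below 0 on both slides, at −0.24 for replicates 1 and 2 and −0.06 for replicate 3, with 9 and 7 subunits lower. *UQCRQ*, a small subunit that contacts cytochrome b, was its lowest. It measured 15.19, 15.22 and 15.31 in the controls, 14.82, 14.94 and 15.03 with siRNA1 and 14.87, 14.76 and 15.23 with siRNA2. Of the 6 siRNA arrays, siRNA2 replicate 3 alone reached the range of the controls. The difference was −0.30 (SE 0.13, adjusted p 0.659 by limma, 0.102 with the replicate block).

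*CYC1*, cytochrome c1, which hands electrons to cytochrome c, measured 13.04, 12.84 and 12.86 in the controls, 12.84, 12.49 and 12.71 with siRNA1 and 12.64, 12.77 and 12.63 with siRNA2. The highest siRNA array and the lowest control lay next to each other without overlap. The difference was −0.23 with each siRNA and with both (SE of both 0.12, adjusted p 0.725 by limma), and the two-sided exact permutation tests gave p 0.0238 over arrays and 0.0741 within replicate numbers. *UQCRFS1*, the Rieske iron-sulphur protein, differed by −0.12 (SE 0.11), and *UQCRC2*, a core protein and the highest of the complex, by −0.09 (SE 0.12), which turned to 0.01 with normexp and quantile scaling.

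Complex IV, cytochrome c oxidase, is the last to receive the electrons. Of 12 subunits 10 were lower, with a median of −0.18 and a range from −0.27 to 0.14, and 8 were lower with normexp and quantile scaling. By slide the median was −0.23 for replicates 1 and 2 and −0.01 for replicate 3. limma called 0, and 0 had an unadjusted p under 0.05, or 2 with the replicate block (16.7%, against 19.1% of all genes). *COX5A*, a subunit of the matrix side, measured 14.28, 14.27 and 14.16 in the controls, 14.06, 14.05 and 14.10 with siRNA1 and 14.02, 13.88 and 14.11 with siRNA2. The groups do not overlap, and the gap between the nearest arrays was smaller than the spread of the controls. The difference was −0.20 (SE 0.11, adjusted p 0.727 by limma, 0.215 with the replicate block), and the two-sided exact permutation tests gave p 0.0119 and 0.037, the smallest that each can give.

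*COX6C*, the lowest of complex IV, varied between replicate numbers as well as between groups. It measured 15.59, 16.51 and 16.19 in the controls, 15.50, 15.89 and 16.19 with siRNA1 and 15.66, 15.49 and 16.24 with siRNA2. The paired difference of siRNA2 in replicate 2, −1.02, was the lowest of any subunit on any array, and 2 of 6 arrays were not lower. The mean difference was −0.27 (SE 0.24, adjusted p 0.841 by limma).

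The heart and muscle isoform *COX6A2* had the highest difference of the 79. Its probe was dim, below the range of 12.2 to 15.7 that held most subunits. The gene measured 6.63, 6.50 and 7.17 in the controls, 6.81, 7.36 and 7.26 with siRNA1 and 6.55, 6.33 and 7.11 with siRNA2. Every siRNA1 array lay above its own control and every siRNA2 array below it. The difference with siRNA1 was 0.19, 0.87 and 0.09 in replicates 1 to 3, so replicate 2 carried most of its mean of 0.38. It was −0.10 with siRNA2, and 0.14 with both (SE 0.21, adjusted p 0.917 by limma). *COX6B2*, the testis isoform, differed by −0.17 (SE 0.13), and a dimmer probe of it by 0.19, so its direction depended on the probe. *COX7A2L*, a relative of *COX7A2* that joins complexes III and IV in a supercomplex, measured 13.81, 13.88 and 13.45 in the controls, 13.63, 13.65 and 13.42 with siRNA1 and 14.10, 13.95 and 13.76 with siRNA2. It too was lower on each siRNA1 array and higher on each siRNA2 array than its own control, by −0.14 and 0.23 on average. *COX7A2* itself, named after its values were seen, lay 0.77 above its control with siRNA2 in replicate 3 and was lower on 4 of the other arrays.

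Complex V, ATP synthase, had 15 of 18 subunits lower, with a median of −0.15, and 12 with normexp and quantile scaling. By slide the median was −0.21 for replicates 1 and 2 and 0.01 for replicate 3. limma called 0, and 0 had an unadjusted p under 0.05, or 1 with the replicate block (5.56%, against 19.1% of all genes), *ATP5F1B*. *ATP5F1B*, the catalytic beta subunit, measured 14.27, 14.22 and 14.65 in the controls, 14.03, 13.97 and 14.50 with siRNA1 and 13.87, 14.12 and 14.25 with siRNA2. Replicate 3 was high in every group, and within each replicate number both siRNA arrays lay below the control. The difference was −0.26 (SE 0.16, adjusted p 0.764 by limma), or adjusted p 0.148 with the replicate block, and the two-sided exact permutation tests gave p 0.143 over arrays and 0.0741 within replicate numbers. *ATP5F1A*, the alpha subunit, differed by −0.18 (SE 0.12) and was also lower on 6 of 6 arrays.

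*ATP5MC3*, 1 of the genes for the c subunit of the rotor ring, was the lowest of complex V. It measured 16.35, 16.47 and 16.22 in the controls, 16.31, 15.99 and 16.28 with siRNA1 and 15.80, 15.68 and 16.28 with siRNA2. Both arrays of replicate 3 lay above their control and the other 4 below theirs. The difference was −0.29 (SE 0.15, adjusted p 0.729 by limma). *ATP5MJ*, a small membrane subunit, was the highest of the complex at 0.02 (SE 0.12), or −0.01 when arrays were scaled to their 75th percentile. *ATP5MG* also differed by 0.02 and the related *ATP5MGL* by −0.07, and their probes may read each other's transcript, as may that of *UQCRH* the transcript of *UQCRHL*.

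**Figure D4:**
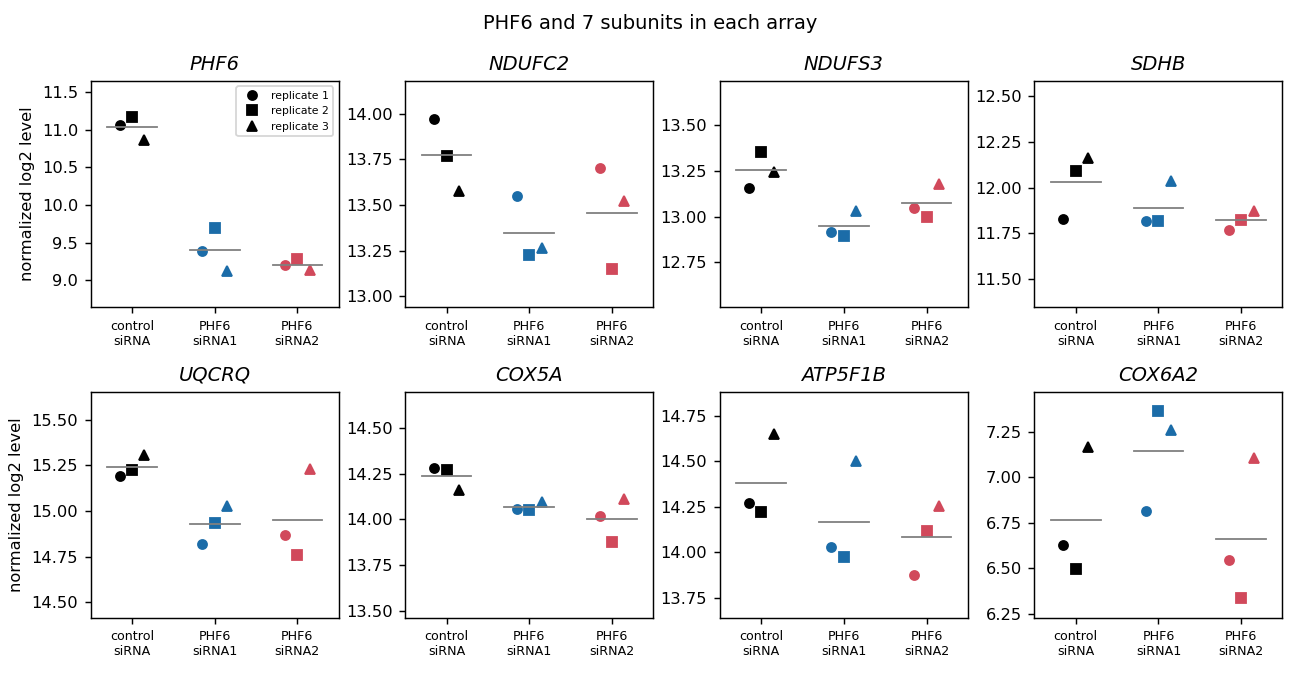
Log2 intensity (vertical axis) of *PHF6* and 7 subunits on each of the 9 arrays, by siRNA group (horizontal axis), with replicates 1, 2 and 3 as circles, squares and triangles and the group mean as a grey line; the vertical range differs between the panel of *PHF6* and the others. *PHF6* lies between 9.12 and 9.69 with the siRNAs against 10.86 to 11.17 in the controls, while for the subunits the groups overlap except for *COX5A*.

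For 14 subunits more than 1 probe was tested. In 3 of them, *COX6B2*, *SDHC* and *UQCRB*, the probes differed in sign, and the median range between the probes of a gene was 0.0894. With the mean of all probes in place of the brightest one, 71 subunits were lower with a median of −0.14.

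The replicate numbers were also compared with one another, over the siRNA groups. In replicate 2 against replicate 1, limma with the replicate number in the model called 1 of the 79 subunits, where 9.6% of all genes were called, and 4 had an unadjusted p under 0.05, 5.06% against 26.8% of all genes. It was *NDUFB4*, an accessory subunit of complex I, which measured 15.03, 14.93 and 14.93 in replicate 1 and 15.44, 15.37 and 15.20 in replicate 2, in the order control, siRNA1, siRNA2. The 3 arrays of replicate 2 lay above the 3 of replicate 1, by 0.37 on average (adjusted p 0.0379). The call was lost without any 1 of the arrays of replicate 1, without the control or siRNA1 array of replicate 2, and without either siRNA array of replicate 3, and 2 subunits were called without siRNA2 replicate 2. The median of the subunits was 0.01, or −0.01 with normexp and quantile scaling.

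In replicate 3 against replicates 1 and 2, in the same fit with the replicate number, 10 subunits were called (12.7%), where 29.8% of all genes were, and 19 had an unadjusted p under 0.05, 24.1% against 42.3% of all genes. Higher in replicate 3 were *COX6A2* (0.48), *ATP5F1B* (0.39), *NDUFB2* (0.34) and *NDUFC1* (0.25). Lower were *COX8A* (−0.60), *ATP5F1D* (−0.39), *NDUFS7* (−0.38), *COX7A2L* (−0.29), *NDUFS4* (−0.28) and *NDUFB11* (−0.27), and these 10 are named here because they passed the test. *COX8A*, the small isoform of complex IV found in most tissues, measured 15.65, 15.29 and 15.65 in replicate 3, in the order control, siRNA1, siRNA2. In replicate 1 it measured 16.27, 16.20 and 15.70 and in replicate 2 16.32, 16.08 and 16.20. All 3 arrays of replicate 3 lay below the other 6. Subunits of the same complex went both ways, and the median of the 79 was 0.04, against −0.03 over all genes. It was −0.06 under the VSN model on background-subtracted intensities (all genes −0.11), 0.13 with normexp and quantile scaling (all genes 0.02), and −0.00 and −0.04 without siRNA2 replicate 2 and siRNA2 replicate 3. With normexp and quantile scaling 29 of the 79 subunits were called, beside 10909 of 33595 probes, so that a smaller share of called subunits than of all genes depended on the scaling. With all 9 arrays 11137 of 33595 probes were called beside the 10 subunits. The count of subunits was 4 without siRNA1 replicate 1 (8244 probes called). It was 6 without siRNA2 replicate 1 (8422 probes) or without siRNA2 replicate 2 (11318 probes). It was 5 without the control array of replicate 3 (7999 probes), 2 without its siRNA1 array (5434 probes) and 3 without its siRNA2 array (4660 probes). *NDUFS7* was called in each of these fits but not with the 75th percentile. *COX8A* lost its call without the siRNA1 array of replicate 3, with VSN on background-subtracted intensities and with the 75th percentile. Replicate 3 and its slide are the same division here and cannot be told apart.

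The 9 values of each gene were also divided into the parts that go with the siRNA group, with the replicate number and with neither. For the median subunit 31.5% of the sum of squares went with the siRNA group, against 19.4% for the median gene. The replicate number took 32.6% for the subunits, against 51.7% for all genes. Complex III had the highest share for the siRNA group, 53.2%, and its share for the replicate number was 18.9%. Complex II had the highest residual, 49.2%. The SD of a subunit over the 9 arrays was 0.153 at the median, against 0.206 for all genes. With normexp and quantile scaling these contrasts nearly vanished, with 20.8% for the siRNA group against 18.5% for all genes and 51.6% for the replicate number against 52.7%. With VSN on background-subtracted intensities the replicate number took 22.1% for the subunits.

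The subunits also moved together across the 9 arrays. The median Pearson r over their 3081 pairs was 0.355, and 77.2% of the pairs were above 0. Over all genes the median was 0.024, over genes of the same brightness 0.181, over mitochondrial ribosomal proteins 0.285 and over cytosolic ribosomal proteins 0.532. Within complexes it was 0.406 for complex I, 0.255 for complex II, 0.416 for complex III, 0.254 for complex IV and 0.283 for complex V, so 3 of the 5 lay below the value over all subunits. These values describe 9 arrays that share groups and replicate numbers, and the genes of a pair are not independent replicates.

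The promoters of the members were also read for short motifs of 3 factors known to bind promoters of respiratory genes. Promoters of 300 bases, from 250 before to 50 after the start, came from RefSeq on GRCh38.p14 and were found for 65 of the 79 subunits, 78 promoters in all. The letters searched on both strands were GCGCATGCG for NRF1, CCGGAAG for the ETS factor GABP and AAGATGGCG for YY1, of which the last 2 can overlap in the letters AAG. The NRF1 letters were found in 11 promoters (14.1%), against 1.92% of all 35114 promoters of this length and 2.91% of those of measured genes. The ETS letters were found in 21 (26.9%), against 10.3% and 15.7%, and the YY1 letters in 10 (12.8%), against 1.75% and 3.09%. Promoters of mitochondrial ribosomal proteins held the same letters in 3.53%, 38.8% and 15.3%, and those of cytosolic ribosomal proteins in 1.16%, 32.6% and 6.98%. Any of the motifs was present in 34 of the 78 promoters (43.6%), against 13.1% of all promoters, 20.1% of those of measured genes, 50.6% of those of mitochondrial ribosomal proteins and 39.5% of those of cytosolic ribosomal proteins.

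The promoters printed here, 5' to 3', show the lowest subunit of each complex with a motif in the table, and *COX5A*, whose groups did not overlap and whose promoter holds none of these letters. Capitals mark the motifs. *NDUFA13* (chr19:19515975-19516274, plus strand) holds ETS letters 10 bases before the start. *SDHB* (chr1:17053983-17054282, minus strand) holds ETS letters 128 bases before it and YY1 letters from base 11 after it. *UQCRQ* (chr5:132866392-132866691, plus strand) holds ETS letters at 54 bases and *COX8A* (chr11:63974370-63974669, plus strand) at 18 bases before the start, the latter on the other strand. *ATP5PF* (chr21:25735005-25735304, minus strand), the coupling factor F6, holds all 3, at 120 bases (NRF1), 57 bases (YY1) and 30 bases (ETS) before the start, while its other promoter in the table lacks the NRF1 letters. *COX5A* lies at chr15:74938024-74938323, minus strand.
NDUFA13: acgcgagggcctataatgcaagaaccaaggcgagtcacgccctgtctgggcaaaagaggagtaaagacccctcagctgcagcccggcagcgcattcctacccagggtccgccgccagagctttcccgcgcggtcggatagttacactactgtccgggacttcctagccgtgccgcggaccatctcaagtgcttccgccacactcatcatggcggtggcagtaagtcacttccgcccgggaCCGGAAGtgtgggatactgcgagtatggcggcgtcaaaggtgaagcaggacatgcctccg
SDHB: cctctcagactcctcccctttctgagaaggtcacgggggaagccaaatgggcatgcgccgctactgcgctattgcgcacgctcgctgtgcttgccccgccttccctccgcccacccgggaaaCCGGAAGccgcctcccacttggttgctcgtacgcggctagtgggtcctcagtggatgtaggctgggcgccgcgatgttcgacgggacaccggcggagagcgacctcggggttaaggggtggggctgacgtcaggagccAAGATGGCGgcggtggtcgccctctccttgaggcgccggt
UQCRQ: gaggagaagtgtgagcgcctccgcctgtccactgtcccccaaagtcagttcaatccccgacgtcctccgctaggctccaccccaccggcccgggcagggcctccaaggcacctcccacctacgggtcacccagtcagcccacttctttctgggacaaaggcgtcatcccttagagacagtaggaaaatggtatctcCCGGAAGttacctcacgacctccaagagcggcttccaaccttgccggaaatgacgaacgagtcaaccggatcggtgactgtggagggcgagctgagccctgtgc
COX8A: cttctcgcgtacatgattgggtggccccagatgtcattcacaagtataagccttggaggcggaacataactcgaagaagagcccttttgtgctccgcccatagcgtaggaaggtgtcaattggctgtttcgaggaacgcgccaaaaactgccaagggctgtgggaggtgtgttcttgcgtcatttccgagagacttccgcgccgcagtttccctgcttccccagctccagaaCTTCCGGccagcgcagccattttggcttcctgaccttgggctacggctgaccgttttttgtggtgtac
ATP5PF: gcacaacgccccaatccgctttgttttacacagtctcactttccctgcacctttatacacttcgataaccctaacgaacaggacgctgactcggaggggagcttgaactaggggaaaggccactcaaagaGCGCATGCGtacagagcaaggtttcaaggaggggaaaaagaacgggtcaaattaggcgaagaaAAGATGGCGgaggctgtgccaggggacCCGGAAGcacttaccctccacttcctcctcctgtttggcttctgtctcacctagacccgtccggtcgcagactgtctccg
COX5A: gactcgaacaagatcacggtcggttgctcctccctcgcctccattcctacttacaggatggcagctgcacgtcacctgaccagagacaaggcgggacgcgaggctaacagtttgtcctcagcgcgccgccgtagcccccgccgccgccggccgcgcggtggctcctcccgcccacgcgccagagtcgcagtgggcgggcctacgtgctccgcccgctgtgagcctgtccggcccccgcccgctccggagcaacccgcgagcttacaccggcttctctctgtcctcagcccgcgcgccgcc

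The response was also tabulated for members with and without a motif. The 33 subunits with any motif had a median log2 difference of −0.16, with 31 lower, and the 32 without had −0.12, with 29 lower. With ETS letters the median was −0.18 (19 of 20 lower) and without −0.12 (41 of 45), and for the NRF1 letters it was −0.15 on both sides. A match describes letters in this window and is not a site or a cause, and no test was made of these differences.

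*NDUFA13*, shown above for its ETS letters, is an accessory subunit of complex I and measured 14.24, 14.11 and 13.86 in the controls, 13.88, 13.74 and 13.73 with siRNA1 and 13.96, 13.70 and 13.83 with siRNA2. It was lower on 6 of 6 arrays, though its groups overlap, with a difference of −0.26 (SE 0.12, adjusted p 0.699 by limma). *ATP5PF* measured 14.41, 14.63 and 14.43 in the controls, 14.13, 14.38 and 14.41 with siRNA1 and 14.13, 14.15 and 14.47 with siRNA2. It was lower on the slide of replicates 1 and 2 by −0.32 and differed by 0.01 on that of replicate 3.

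Some subunits and close partners are not reached by the symbols. Of 7, namely *COX4I1*, *COX4I2*, *CYCS*, *NDUFAB1*, *ATP5IF1*, *HIGD1A* and *HIGD2A*, 6 were lower with the *PHF6* siRNAs (58.9% of all genes), with a median of −0.12, 0 were called by limma and 0 had an unadjusted p under 0.05. *NDUFAB1*, the acyl carrier protein of complex I, differed by −0.22 (SE 0.16) and was lower on 6 of 6 arrays. *CYCS*, cytochrome c, differed by −0.16 (SE 0.16), *ATP5IF1*, an inhibitor of ATP synthase, by −0.13 (SE 0.11) and *COX4I1*, the common isoform of its subunit, by −0.06 (SE 0.12). *COX4I2*, the isoform tied to low oxygen, was the 1 not lower, at 0.11 (SE 0.15). Its probe was dim and was well above background on 8 arrays.

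The assembly factors build the complexes and load their cofactors. Of 47 measured, 43 were lower (35 with normexp and quantile scaling), where most of all genes were lower too. The factors' median was −0.13, against −0.04 over all genes. limma called 0, 4 had an unadjusted p under 0.05, and with the replicate block 0 were called, 10 had an unadjusted p under 0.05 and the lowest adjusted p was 0.0671. These are 8.51% and 21.3% of the factors, against 6.38% and 19.1% of all genes.

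Regulators of mitochondrial biogenesis act on many of these genes. Of 15 listed, 14 were measured, and *PPARGC1A*, the best known coactivator of the process, was well above background on 0 arrays. 10 of the 14 were lower (71.4%, where 58.9% of all genes were), with a median of −0.09. limma called 0, 0 had an unadjusted p under 0.05, and with the replicate block 0 were called and 3 had an unadjusted p under 0.05, 21.4% against 19.1% of all genes. *NRF1*, an activator of respiratory genes, measured 8.24, 8.49 and 8.47 in the controls, 8.42, 8.60 and 8.37 with siRNA1 and 8.49, 8.52 and 8.50 with siRNA2. These values overlap and differ by 0.08 (SE 0.11), in the direction opposite to the subunits. *GABPB1*, a partner of the ETS factor *GABPA*, was higher than its own control on 6 of 6 arrays, by 0.31 (SE 0.33, adjusted p 0.873 by limma, 0.0813 with the replicate block), and it differed by 1.17 between replicates 2 and 1. *GABPA* differed by 0.02 (SE 0.16) and *YY1* by −0.02 (SE 0.11). *TFAM*, the packaging factor of mitochondrial DNA, was lower on 5 arrays, by −0.23 (SE 0.13), and *TWNK*, its helicase, on 6, by −0.39 (SE 0.22, adjusted p 0.74 by limma, 0.0577 with the replicate block). *MYC*, which raises mitochondrial genes in growing cells, measured 14.09, 14.13 and 14.32 in the controls, 13.71, 13.43 and 14.18 with siRNA1 and 14.09, 13.27 and 14.58 with siRNA2. Replicate 2 had its lowest siRNA arrays, and the difference was −0.30 (SE 0.26, adjusted p 0.835 by limma). *PPARGC1B* (0.08), *PPRC1* (−0.09), *ESRRA* (−0.10), *POLRMT* (−0.10), *POLG* (−0.13), *TFB1M* (−0.05) and *TFB2M* (−0.08) differed by no more than their SE or little more.

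Neighbouring lists were also mostly lower, where 58.9% of all genes and 74.5% of the genes as bright as the subunits were. Of 13 enzymes of the citric acid cycle 10 were lower (median −0.09), and of 7 carriers and porins 6 (median −0.10). Of 77 mitochondrial ribosomal proteins 67 were lower (median −0.11), and of 86 cytosolic ribosomal proteins 74 (median −0.08), the last turning to 0.00 with normexp and quantile scaling, where 43 were lower. limma called 0 genes of these lists with or without the replicate block, and 0, 1, 1 and 0 of them in this order had an unadjusted p under 0.05 without it, where 6.38% of all genes did. With the block these were 1, 1, 10 and 2, that is 7.69%, 14.3%, 13.0% and 2.33%, against 19.1% of all genes. With siRNA1 alone the medians of the carriers and of the mitochondrial ribosomal proteins, −0.13 each, were close to that of the subunits, −0.14. In replicate 2 the mitochondrial ribosomal proteins lay as low as the subunits or lower, at −0.23 with siRNA1 and −0.24 with siRNA2. The differences between lists were not tested.

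**Figure D5:**
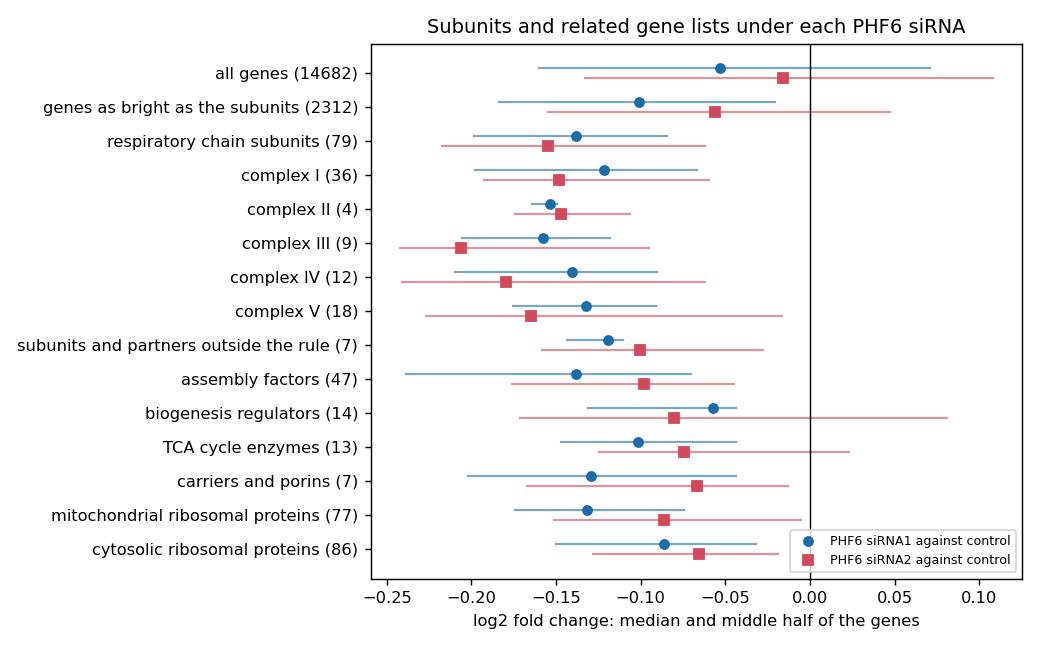
Median log2 difference from control (horizontal axis) with the middle 50% of genes as a bar, for the subunits, their complexes and the other lists (vertical axis), under *PHF6* siRNA1 (circles) and siRNA2 (squares). The medians of the subunits are −0.14 and −0.15 and those of all genes −0.05 and −0.02; with normexp and quantile scaling the medians of cytosolic ribosomal proteins (0.01 and 0.01) and, for siRNA1, of the biogenesis regulators (0.04) lie above 0.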

How the data were processed

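The deposited tables hold the authors' normalized intensity as log2 values, and the deposited array files hold the median intensity of each spot beside flags of 0 or 1. The array files were made with Feature Extraction 9.1 according to the processing notes and 10.5.1.1 according to their headers. Median intensities of 57176 probes were taken without subtracting the spot background. A re-implementation of the VSN model in R fitted an offset and a scale for each array, with 7 iterations and a quantile of 0.9. It was used since the vsn package was not installed. A probe was tested when its flags marked it well above background on at least 3 arrays, which left 33595. limma 3.58.1 on R 4.3.3 fitted the 3 siRNA groups, once without and once with the replicate number as a block. P-values were two-sided and adjusted by Benjamini-Hochberg over the 33595 probes, with a threshold of 0.05, and intervals cover 95%. Deviations from group means correlated across probes with a median r of 0.60 (0.31 to 0.74, 9 pairs) between arrays of the same number and with −0.57 to 0.13 otherwise, 17 of 18 below 0, which is why the block was kept beside the plain fit.

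The array headers name hg19, and symbols and promoters were taken from GRCh38.p14, through which 25729 of 57176 probes received a symbol. Alternatives were the block, a block of slides, background-subtracted intensities with VSN or scaled to the 75th percentile, normexp (offset 50) with quantile scaling, the authors' table, the mean over a gene's probes, other filters, limma with trend and robust options, and fits without single arrays or single replicate numbers. Named genes were *PHF6*, a fixed list of 11 central subunits, the tissue isoforms *COX6A2* and *COX6B2*, the highest and lowest subunit of each complex by the difference of both siRNAs, subunits called in any comparison, called markers, and the short lists of regulators and of subunits that the symbols miss. The members and lists were chosen with earlier results of these data known. The symbols leave out *NDUFB2-AS1*, *NDUFA6-DT* and *UQCRBP1* as not protein-coding, and *COXFA4*, formerly *NDUFA4*, as renamed. The promoter table lacks *ATP5F1B*, *ATP5F1D*, *ATP5MC3*, *ATP5MF*, *ATP5MGL*, *COX6C*, *CYC1*, *NDUFB5*, *NDUFB9*, *NDUFC2*, *NDUFS5*, *SDHC* and *UQCRB*, among others. The values of 1 subunit that this choice of genes would name are not reported here.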

Additional observations from a re-analysis of the deposited data

Results flagged for a closer look

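For 2 subunits every array of one siRNA lay above the control of its own replicate number and every array of the other siRNA below it. Other subunits also had means of opposite sign, without this holding on every array. *COX6A2*, the heart and muscle isoform of a complex IV subunit, was read by a dim probe. Its level was 0.38 above control with siRNA1 and 0.10 below it with siRNA2, a difference between the siRNAs of −0.48. Replicate 2 carried most of it, with 0.87 above its control with siRNA1, against 0.19 and 0.09 in replicates 1 and 3. With the replicate block its adjusted p by limma was 0.423. *COX7A2L*, which joins complexes III and IV, was −0.14 with siRNA1 and 0.23 with siRNA2, a difference of 0.37 with an adjusted p of 0.336 by limma with the replicate block. Of the 2, *COX7A2L* was called with siRNA2 under 1 of the alternatives, the replicate block with normexp and quantile scaling, at 0.31 (adjusted p 0.0465 by limma). Both genes also differed between replicate 3 and the other replicates over the siRNA groups, *COX6A2* by 0.48 and *COX7A2L* by −0.29. Why the siRNAs differ here was not tested.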

How the results depend on the processing

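The direction of the subunits' median held in every setting for both siRNAs and for each siRNA alone, and 0 subunits were called by limma in all settings but 1. With both siRNAs the median was −0.22 with VSN on background-subtracted intensities (77 lower, all genes −0.10), −0.17 with the 75th percentile (76 lower, all genes −0.05) and −0.06 with normexp and quantile scaling (56 lower, all genes −0.01), so part of each shift was one of all genes. Without single arrays it ranged from −0.18 to −0.12.

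The number of called probes moved more. With both siRNAs limma called 3 of the 33595 probes without a block. It called 919 with the replicate block, 24 with the slide block, 5 with the 75th percentile, 272 with this scaling and the replicate block, 5 with normexp and quantile scaling, 1274 with that and the replicate block, 855 with the authors' table and the replicate block, and with the replicate block 46 without replicate 1, 5 without replicate 2 and 675 without replicate 3. With siRNA1 it called 3, but 316 with the replicate block, 11 with the slide block, 0 with VSN on background-subtracted intensities, 6 with the 75th percentile, 38 with that and the replicate block, 480 with normexp, quantiles and the replicate block, 262 with the authors' table and the replicate block, 36, 9 and 135 with the block without replicate 1, 2 and 3, 6 with the filter on all 9 arrays and 0 to 7 without single arrays. With siRNA2 it called 4, and in the same order 551, 11, 0, 2, 53, 915, 474, and 15, 3 and 346, and 0 to 4 without single arrays. Between the siRNAs it called 0, but 13 with the replicate block, 6 with the slide block, 9 with normexp, quantiles and the replicate block, 10 with the authors' table and the replicate block, 0 to 25 with the block without 1 replicate number, 4 with the filter on all 9 arrays and 0 to 11 without single arrays. The cause was not tested. The 1 subunit called with siRNA2, under the replicate block with normexp and quantiles, was *COX7A2L*.

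Replicate 2 against replicate 1 gave 2852 called probes, but 1573 with VSN on background-subtracted intensities, 1835 with the 75th percentile, 1195 without a filter and 748 to 2857 without single arrays. Of the subunits 1 was called, but 0 with each of these 3 settings, 2 with normexp and quantiles, 3 with trend and robust options and 0 to 2 without single arrays. Replicate 3 against the others gave 11137 called probes, and 4660 to 11318 without single arrays. Of the subunits 10 were called, but 5 with VSN on background-subtracted intensities, 2 with the 75th percentile, 29 with normexp and quantiles, 4 without a filter, 17 with trend and robust options and 2 to 10 without single arrays. The subunits' share of variation for the siRNA group, 31.5%, was 20.8% with normexp and quantiles. The cause was not tested.

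The limits are those of 9 arrays from 1 cell line. Replicates 1 and 2 share a slide, so slide and replicate 3 cannot be told apart, and the lean of the subunits was near 0 there. RNA levels say nothing of protein, of assembled complexes or of oxygen use, none of which was measured, and no probe was matched by symbol to the mitochondrially encoded subunits. Bulk RNA cannot tell a changed mix of cells from less RNA per cell, and total RNA per cell is not given. The median intensity of an array was 41.25 to 55 against 23 to 27.5 for negative controls. The probes of *COX7A1* and *COX8C* were well above background on 1 and 0 arrays, and whether these isoforms are weakly expressed was not tested.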
